A study of Mus musculus with 12 samples.

Results

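The myosin of the heart muscle cell was followed here through 8 genes, namely the heavy chain genes Myh6 and Myh7, the light chain genes Myl2, Myl3, Myl4, Myl7 and Myl1, and Mybpc3, which codes for cardiac myosin binding protein C. The members were taken by gene symbol, as 8 of the 18193 genes that at least 1 probe set of the array named alone. They were read by 12 of 45037 probe sets, and 2 more probe sets named Myh6 and Myh7 together. For each gene the probe set with the highest mean over all 12 arrays was used, and its other probe sets served as a check. The rule itself reads gene symbols only.

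The study profiled mouse embryonic stem cells on their way to cardiomyocytes on 12 Affymetrix mouse genome arrays, with 3 arrays for each of 4 stages. All cells came from the CGR8 embryonic stem cell line, grown without feeder cells, so that every array describes 1 line. ES-LIF(+) cells grew in 7.5% serum with leukemia inhibitory factor (LIF), which holds stem cells undifferentiated, and ES-LIF(-) cells had spent 48 h without it. Cells of the later stages had been stimulated with a cocktail of IL6, FGF, EGF, VEGF, IGF1, IL3, IL-13, TGFβ and BMP. Cardiopoietic cells (CP), the cardiac progenitors, then had 3% serum and TNFα at 30 ng/ml for 5 days, and cardiomyocytes (CM) had 20% serum for 9 days, and each population was enriched on a Percoll density gradient. Serum, TNFα, culture time and gradient therefore differed together with the stage, and their parts cannot be told apart.

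Sarcomeric myosin is a hexamer of a pair of heavy chains, each carrying an essential and a regulatory light chain, and it forms the thick filament that pulls on actin. In the mouse heart Myh6 codes for the fast alpha heavy chain, found in the embryonic atria and throughout the adult heart, and Myh7 for the slow beta chain of the fetal ventricle. Myl4 and Myl7 code for the essential and the regulatory light chain of the atria, and Myl3 and Myl2 for those of the ventricle. Myl1 codes for the essential light chain of fast skeletal muscle, and Mybpc3 for a protein that ties the myosin heads to the thick filament and sets how many can engage.

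Myh6 and Myh7 lie next to each other on mouse chromosome 14, on the same strand, in the RefSeq annotation of GRCm38.p6. The 250 bases before an annotated start of 5 members are shown because they hold letters of muscle gene motifs. Capitals mark every match, on either strand, to CATTCC (the MCAT motif bound by TEAD factors), GATAA (the GATA motif), the CArG box of serum response factor or the MEF2 site, the last pair searched by their usual ambiguous patterns. No matches overlapped each other in these 5 windows.
Myh6 promoter, chr14:54966608-54966857, minus strand: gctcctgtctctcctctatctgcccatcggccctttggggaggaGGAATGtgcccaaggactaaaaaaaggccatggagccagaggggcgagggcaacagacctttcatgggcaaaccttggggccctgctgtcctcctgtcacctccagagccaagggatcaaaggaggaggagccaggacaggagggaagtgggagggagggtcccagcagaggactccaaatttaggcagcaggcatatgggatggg
Myh7 promoter, chr14:54994627-54994876, minus strand: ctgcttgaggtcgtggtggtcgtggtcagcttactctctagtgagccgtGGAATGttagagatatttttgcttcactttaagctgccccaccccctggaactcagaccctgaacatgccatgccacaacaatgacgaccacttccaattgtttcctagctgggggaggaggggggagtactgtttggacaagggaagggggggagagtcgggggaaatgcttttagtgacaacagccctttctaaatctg
Myl7 promoter, chr11:5898783-5899032, minus strand: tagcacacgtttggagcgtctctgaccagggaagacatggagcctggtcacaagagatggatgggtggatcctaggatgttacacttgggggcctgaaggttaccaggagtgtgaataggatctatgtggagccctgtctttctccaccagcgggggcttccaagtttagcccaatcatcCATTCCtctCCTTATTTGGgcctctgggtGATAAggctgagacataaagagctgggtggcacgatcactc
Myl3 promoter, chr9:110763428-110763677, plus strand: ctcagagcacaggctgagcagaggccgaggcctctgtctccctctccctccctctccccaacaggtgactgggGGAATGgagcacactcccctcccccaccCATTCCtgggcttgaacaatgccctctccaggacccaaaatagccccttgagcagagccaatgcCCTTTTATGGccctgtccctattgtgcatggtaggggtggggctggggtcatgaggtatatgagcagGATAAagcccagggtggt
Mybpc3 promoter, chr2:91117894-91118143, plus strand: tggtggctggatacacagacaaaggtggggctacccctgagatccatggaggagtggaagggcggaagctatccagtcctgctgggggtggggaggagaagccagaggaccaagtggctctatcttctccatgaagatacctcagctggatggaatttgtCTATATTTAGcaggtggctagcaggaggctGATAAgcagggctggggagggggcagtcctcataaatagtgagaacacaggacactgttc

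Among the 8 members, 5 had an MCAT match before at least 1 annotated start (Myh6, Myh7, Myl7, Myl3 and Myl1) and 4 had a GATA match (Myl7, Myl2, Myl3 and Mybpc3). The CArG box was matched in Myl7, 61 bases before the start, and in Myl3, 85 bases before it, and the MEF2 pattern in Mybpc3, 90 bases before it. Myl4 had no match to any of the 4. Of all 32851 promoter windows of this length in the same table, 12.6% held an MCAT match, 22.6% a GATA match, 1.47% a CArG match and 2.92% a MEF2 match. These shares count windows, whereas the members were counted by gene over 10 annotated starts. The other annotated starts of Myh7 and Myl2 had no match. A match is a run of letters only, since binding was not measured.

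Both heavy chain genes carry a microRNA within their span, each with a 3p and a 5p mature form. The 3p forms share their seed (bases 2 to 8, in capitals), as do the 5p forms, which are not printed. The 3p forms are printed to show what else is transcribed with Myh6 and Myh7. The arrays did not read these microRNAs.
mmu-miR-208a-3p, in Myh6: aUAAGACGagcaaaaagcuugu
mmu-miR-208b-3p, in Myh7: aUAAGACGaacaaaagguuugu

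Values are signal intensities from Microarray Suite 5.0, scaled by the authors to the same trimmed mean on each array. The median signal was 101 to 111 on the ES-LIF(+) arrays and 128 to 144 on the CM arrays, and no 2 arrays held identical values. Fold changes are differences of mean log2(signal + 16), which understates the change of dim probe sets. A gene was called where limma gave an adjusted p under 0.05 (Benjamini-Hochberg over 26083 probe sets) and a fold above 1.5. All 8 members passed the filter on dim probe sets, which asked for a signal above the array's median on at least 3 arrays. Myh7, Myl1 and Myl2 did so only through the CM arrays, so that their difference in CM is a description. With any CM array left out Myh7 and Myl1 no longer passed, and the 6 other members were called in CM. By the study's methods the samples of a stage were taken independently as biological replicates, all of the same cell line. In such bulk samples fewer cells of a type and less RNA per cell cannot be told apart.

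All 8 members were higher in CM than in CP and than in ES-LIF(+), without any overlap between the arrays of the stages. Of all genes tested, 21.9% had every CM array above every CP array and 35.3% every CM array above every ES-LIF(+) array. Their median log2 difference from CP was 5.41, against -0.04 for all genes tested, and from ES-LIF(+) it was 5.95, against 0.06. Of 13145 genes tested, 9.04% were called higher and 10.4% lower in CM than in CP, and 25.7% were higher and 23.9% lower in CM than in ES-LIF(+). The members stood among the 86 genes with the largest fitted rises from CP to CM, but their order carries little, since several were dim in CP and others close to the top of the scale in CM. On the CM arrays Myl4 read 87.4 to 97.8% and Myl7 81.2 to 90.8% of the highest signal on the array, and whether these probe sets were saturated was not tested. Across all 4 stages 8 of 8 members changed by limma's F test, as did 73.1% of all genes. For Myh7, Myl1 and Myl2 this too is a description, since they passed the filter only through the CM arrays.

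**Figure D1:**
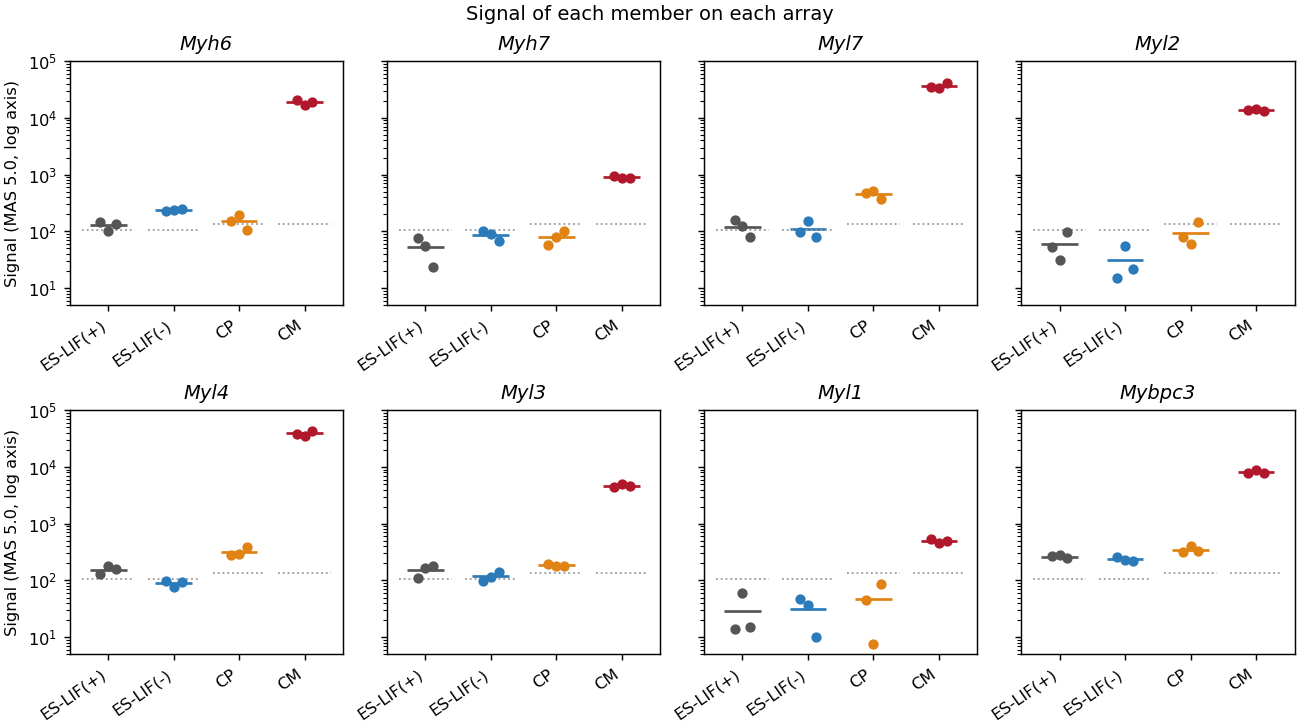
Signal on a log axis for the probe set used for each member, with 1 point per array, a line at the mean of each stage and a dotted line at the mean of the arrays' median signals. The 3 CM arrays lie above all other arrays in every panel, which for the 8 members lie between 7.5 (Myl1) and 524 (Myl7).

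The earlier steps were far smaller. In CP 2 of 8 members, the atrial light chains Myl7 and Myl4, were called higher than in ES-LIF(+), where 18.7% of all genes were called higher and 13.3% lower. Myl4 was no longer called at a 2-fold threshold or with the mean over its probe sets (0.55, limma adjusted p = 0.0982), which called Myh6 instead (0.62, limma adjusted p = 0.018). The members' median was 0.46 on the log2 scale against 0.04 for all genes. Every CP array lay above every ES-LIF(+) array for 3 members (Myl7, Myl4 and Mybpc3), and for 30.8% of all genes tested. In ES-LIF(-), Myh6 was called higher and Myl4 lower than in ES-LIF(+), against 4.0% of all genes called higher and 3.68% lower. Their ES-LIF(-) arrays did not overlap those of ES-LIF(+), while 17.6% of all genes tested lay wholly above and 13.7% wholly below. Set against ES-LIF(-), CP was higher in 4 members (Myl7, Myl4, Myl3 and Myl2) and lower in 1 (Myh6), against 18.2% of all genes higher and 14.5% lower. The alternatives did not cover this comparison. The other Myh6 probe set went the other way, at 38.3 in CP and 9.93 in ES-LIF(-). Myl3 lay close to the 1.5-fold limit (0.59). Its other probe sets were dim and split, at 9.80 and 21.5 in CP against 17.8 and 8.07 in ES-LIF(-). Centring each array on its median instead moved the median of all genes from 0.04 to -0.24 for CP and from 0.06 to -0.26 for CM, and it turned the small CP values of Myh6 and Myl3 below 0 (-0.09 and -0.02), while the calls in CP remained 2.

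**Figure D2:**
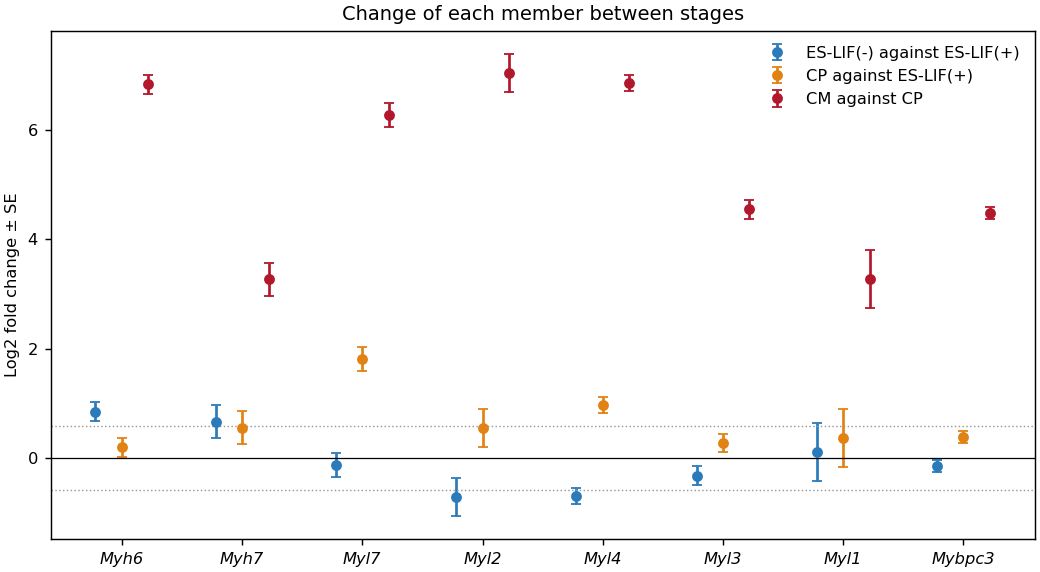
Log2 fold change with its SE for each member, with ES-LIF(-) and CP set against ES-LIF(+) and CM set against CP, from 3 arrays per stage; dotted lines mark the 1.5-fold limit. The CM against CP values lie between 3.27 and 7.04, and of the CP against ES-LIF(+) values only that of Myl7 (1.80) exceeds 1.

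Among the heavy chains, Myh6 had signals of 144, 102 and 137 in ES-LIF(+), of 233, 241 and 243 in ES-LIF(-), and of 151, 195 and 106 in CP. In CM it read 20414, 16867 and 18833. The stages thus ranked CM, ES-LIF(-), CP and ES-LIF(+), and the CP arrays overlapped those of ES-LIF(+) but not those of ES-LIF(-). From CP to CM Myh6 rose by 6.84 ± 0.17 on the log2 scale (SE, n = 3 per stage, limma adjusted p = 1.77e-12), or 115-fold. CP differed from ES-LIF(+) by 0.19 (limma adjusted p = 0.383), which amounts to 2.75% of the whole log2 rise from ES-LIF(+) to CM on this probe set and 14.4% on the other Myh6 probe set.

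Removal of LIF left Myh6 at 239 ± 5.51 (SD, n = 3) against 128 ± 22.2 with LIF, a log2 difference of 0.84 ± 0.17 (SE, limma adjusted p = 0.00491). It was then lower in CP than in ES-LIF(-), by -0.65 (limma adjusted p = 0.00596). The other probe set of Myh6 did not share this early rise, with 10.6 ± 4.71 and 9.93 ± 13.3 in ES-LIF(+) and ES-LIF(-), a difference of -0.14 (limma adjusted p = 0.858). It was instead higher in CP, at 38.3 ± 4.74, by 1.04 (limma adjusted p = 0.0193). The Myh6 probe sets therefore differed below the CM stage, and the rise from CP to CM was 6.18 on the second (72.3-fold) against 6.84 on the first.

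Myh7 had lower signals on its only probe set of its own, at 77.4, 55.8 and 23.2 in ES-LIF(+), 102, 90.4 and 66.7 in ES-LIF(-), and 57.5, 78.7 and 104 in CP. All of these lay below the median of their array and overlapped between stages. In CM it read 930, 880 and 865, a coefficient of variation of 3.86%. The rise from CP was 3.27 ± 0.31 on the log2 scale (SE, n = 3 per stage), or 9.64-fold. No p is given for it, because Myh7 passed the filter only through the CM arrays. CP and ES-LIF(+) differed by 0.55 (limma adjusted p = 0.152), and by 0.83 (limma adjusted p = 0.0427) without ES-LIF(+) replicate 1.

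The 2 heavy chain genes are close paralogs, and 2 probe sets named both. One of them read 42.4 ± 25.5 in ES-LIF(+), 190 ± 12.5 in ES-LIF(-), 154 ± 24.4 in CP and 16031 ± 144 in CM, and the other 15.8 ± 4.03, 14.6 ± 10.8, 50.0 ± 6.77 and 5917 ± 565 (SD, n = 3). From CP to CM they rose by 6.58 and 6.49, close to the Myh6 probe sets. Only the former rose on removal of LIF, by 1.90 (limma adjusted p = 6.46e-05), whereas the latter differed by -0.12 (limma adjusted p = 0.852). How far RNA of either gene reaches the probe sets of the other was not tested, so the values of Myh7 in particular are uncertain.

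Within each array the log2 value of Myh6 minus that of Myh7 was 1.19, 1.15 and 0.03 in CP and 4.43, 4.24 and 4.42 in CM. No CM array overlapped a CP array. The difference shifted by 3.57 towards Myh6, from 0.79 ± 0.66 to 4.36 ± 0.11 (SD, n = 3, exact two-sided permutation p = 0.1, the smallest that 3 against 3 arrays allow). The shift was 2.91 with the other Myh6 probe set, a comparison chosen after seeing the data. All Myh7 signals in CP lay below the array medians, and a Myh7 signal held up by background there would make its rise too small and the shift too large, which was not tested. The shift does not compare the amounts of the 2 heavy chains.

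Myl7, the atrial regulatory light chain, read 161, 123 and 80.8 in ES-LIF(+) and 95.6, 150 and 80.6 in ES-LIF(-), which overlapped. In CP it read 469, 524 and 372, above all stem cell arrays, and in CM 35236, 33108 and 40352. Of the members it rose most in CP, by 1.80 ± 0.22 on the log2 scale (SE, n = 3 per stage, limma adjusted p = 8.15e-06), or 3.49-fold over ES-LIF(+), which is 22.3% of its log2 rise to CM. The step from CP to CM was 6.28 (limma adjusted p = 6.25e-11).

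Myl2, the ventricular regulatory light chain, was dim and scattered before CM, at 53.9, 31.2 and 97.2 in ES-LIF(+), 15.3, 55.8 and 21.4 in ES-LIF(-), and 78.8, 60.1 and 144 in CP. In CM its signals were 13887, 14230 and 13399, a coefficient of variation of 3.02%. Its rise from CP of 7.04 ± 0.35 on the log2 scale (SE, n = 3 per stage), or 132-fold, was as a description the largest among the probe sets used. With a pseudocount of 64 it was 6.49, below the 6.68 of Myl4, and a further Myl3 probe set rose by 7.60. CP differed from ES-LIF(+) by 0.54 (limma adjusted p = 0.217) with overlapping arrays, and from ES-LIF(-) by 1.26 (limma adjusted p = 0.00736), where 5 of the 6 signals lay below the array medians.

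Myl7 minus Myl2 was 2.36, 2.83 and 1.28 in CP and 1.34, 1.22 and 1.59 in CM. The arrays overlapped, and the regulatory light chains shifted by -0.77, away from the atrial form, from 2.15 ± 0.80 to 1.38 ± 0.19 (SD, n = 3, exact two-sided permutation p = 0.3). Leaving out CP replicate 2 made it -0.43 and leaving out CP replicate 3 made it -1.21. CP scattered widely, and 3 against 3 arrays allow no permutation p under 0.1. Whether the atrial and the ventricular regulatory chain changed unequally could therefore not be decided.

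Myl4, the atrial essential light chain, moved at every step. It read 129, 180 and 158 in ES-LIF(+), 97.4, 76.9 and 92.0 in ES-LIF(-), 283, 294 and 384 in CP and 38665, 35346 and 43426 in CM. The stages ranked CM, CP, ES-LIF(+) and ES-LIF(-), with no overlap between neighbours. Myl4 fell by 0.71 on removal of LIF (limma adjusted p = 0.0049), rose by 0.97 ± 0.15 from ES-LIF(+) to CP (SE, limma adjusted p = 6.30e-05) and by 6.87 from CP to CM (limma adjusted p = 3.28e-13). The change to CP amounted to 1.96-fold. The fall without LIF was 0.52 in size, inside the 1.5-fold limit, with a pseudocount of 64, and its adjusted p was 0.116 when the fit held only the stages compared.

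A second probe set of Myl4 followed none of this closely. It read 100 ± 59.6 in ES-LIF(+), 115 ± 69.2 in ES-LIF(-), 116 ± 95.0 in CP and 258 ± 58.2 in CM (SD, n = 3). Its CM arrays overlapped those of CP (1.26 on the log2 scale, limma adjusted p = 0.0796), and it exceeded ES-LIF(+) by 1.40 (limma adjusted p = 0.0305). Which part of the Myl4 transcript either probe set reads was not tested.

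Myl3, the ventricular essential light chain, read 113, 166 and 180 in ES-LIF(+), 97.5, 116 and 139 in ES-LIF(-), 194, 180 and 178 in CP and 4483, 4997 and 4544 in CM. The stem cell arrays overlapped each other, and CP overlapped ES-LIF(+) but not ES-LIF(-), above which it stood by 0.59 (limma adjusted p = 0.0087). The rise from CP to CM was 4.55 ± 0.17 on the log2 scale (SE, n = 3 per stage, limma adjusted p = 1.24e-10), or 23.4-fold. Its other 2 probe sets were dimmer before CM, at 9.80 ± 1.65 and 21.5 ± 2.77 in CP, and read 5011 ± 762 and 3285 ± 824 in CM (SD, n = 3). They gave rises of 7.60 and 6.43, above that of the brightest probe set.

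Myl4 minus Myl3 shifted by 2.32 towards Myl4 with the brightest probe sets, from 0.51, 0.66 and 1.05 on the CP arrays to 3.10, 2.82 and 3.25 on the CM arrays (exact two-sided permutation p = 0.1, the smallest possible). This direction belonged to the probe sets. Against the other Myl3 probe sets the same Myl4 probe set shifted by -0.73 and by 0.44, and with the second Myl4 probe set the 3 shifts were -3.29, -5.17 and -6.34, all chosen after seeing the data. The mean over all probe sets of each gene gave -2.13. The essential light chains therefore gave no settled direction between the atrial and the ventricular form.

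**Figure D3:**
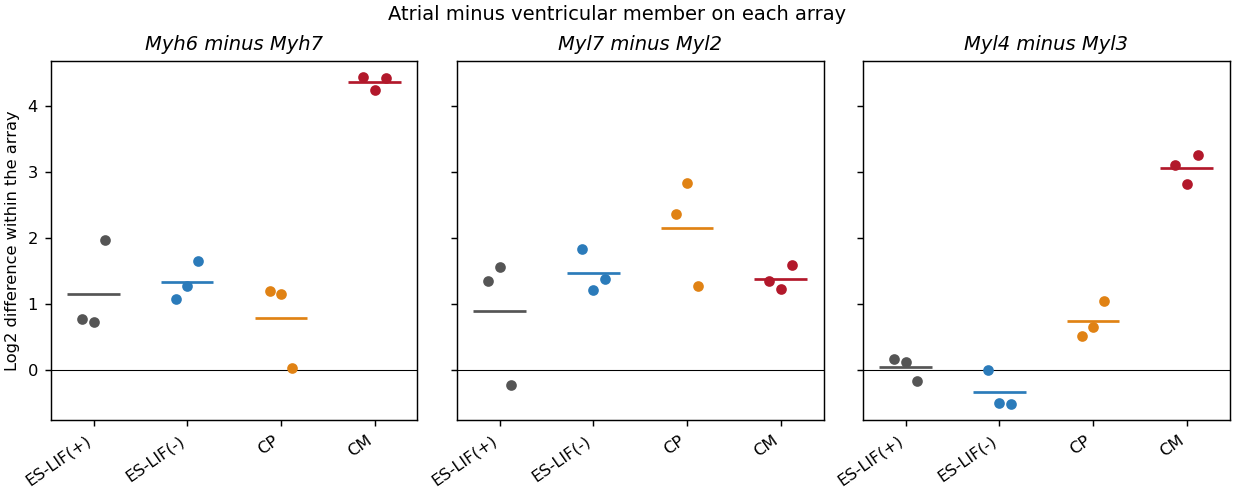
Log2 difference within each array between the atrial and the ventricular member of each kind, from the probe sets with the highest mean, with 1 point per array and a line at each stage's mean. Myh6 minus Myh7 lies at 4.24 to 4.43 in CM and at 0.03 to 1.19 in CP, Myl7 minus Myl2 overlaps between CP and CM, and the rise of Myl4 minus Myl3 from 0.74 to 3.06 turns with other probe sets.

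**Figure D4:**
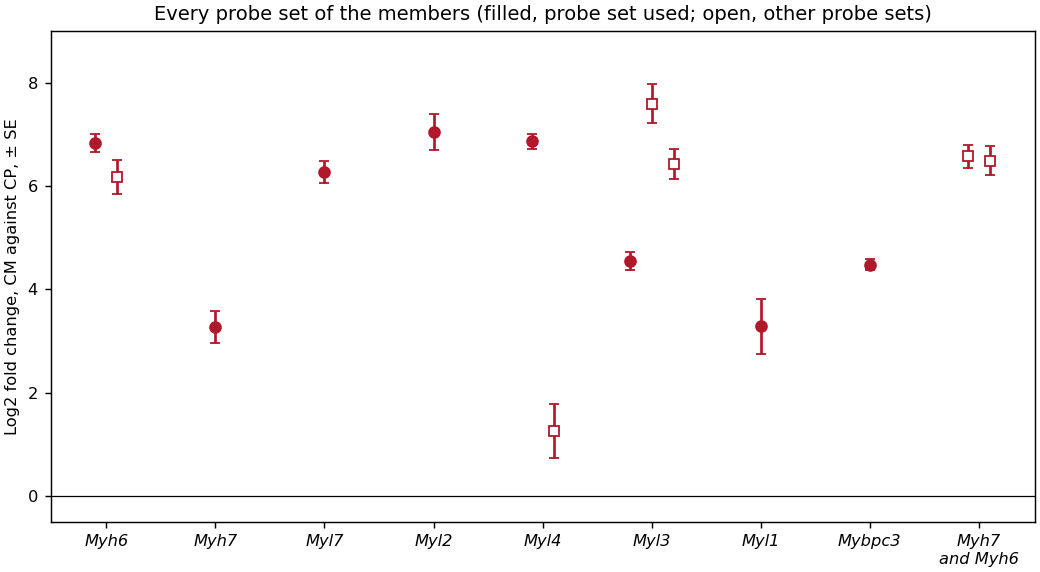
Log2 fold change of CM against CP with its SE for every probe set of the members, filled for the probe set used and open for the others, with the 2 probe sets naming Myh6 and Myh7 at the right. The Myl4 probe sets lie at 6.87 and 1.26, and those of Myl3 at 4.55, 7.60 and 6.43.

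Myl1 was the dimmest member, with ES-LIF(+) at 13.8, 59.2 and 14.9, ES-LIF(-) at 46.8, 36.8 and 10.2, and CP at 45.2, 7.5 and 87.6. In CM it read 540, 463 and 496. As a description, it rose there by 3.28 ± 0.53 on the log2 scale over CP (SE, n = 3 per stage), or 9.71-fold. Because all earlier signals lay below the array medians, this size depended on the pseudocount, at 3.94 with 1 and 2.41 with 64. Between the earlier stages the values overlapped, and the sign of the difference from ES-LIF(+) changed with the array left out.

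Mybpc3, read by 1 probe set, was steady before CM, at 265, 275 and 249 in ES-LIF(+), 258, 229 and 221 in ES-LIF(-) and 323, 403 and 325 in CP. In CM it read 7874, 8700 and 7791. All CP arrays lay above the stem cell arrays, yet the difference of 0.39 from ES-LIF(+) (limma adjusted p = 0.0113) was a 1.31-fold change, under the 1.5-fold limit. The rise from CP to CM was 4.48 ± 0.11 on the log2 scale (SE, n = 3 per stage, limma adjusted p = 1.77e-12), or 22.3-fold.

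Among the 3 CM arrays the members differed little, and not in the same order. Myl7 and Myl4 were highest on CM replicate 3 (0.16 above their means on the log2 scale for each) and lowest on replicate 2 (-0.12 and -0.14). Myl2, Myl3 and Mybpc3 were highest on replicate 2 (0.04, 0.10 and 0.10 above their means). Myh6, Myh7 and Myl1 were highest on replicate 1. This describes 3 arrays and was not tested.

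Over all 12 arrays, after each gene was centred on its own mean, Myl3 and Mybpc3 had the most similar course of any 2 members, with a root mean square difference of 0.22 on the log2 scale. Their nearest genes were also shared, with Nmrk2 (0.28 and 0.21), Dhrs7c (0.31 and 0.28) and Nebl, which codes for the Z disc protein nebulette (0.33 and 0.30). Myl7 and Myl4 were 0.49 apart, and Tnnc1, the cardiac troponin C gene, was near each (0.48 and 0.45). Sln, which codes for the calcium pump regulator sarcolipin, was the nearest gene to both Myl4 (0.42) and Myl2 (0.44). Besides these, Myl7 was near Nppa (0.56) and Smpx (0.58), Myl4 near Smpx (0.58), and Myl2 near Tnni3 (0.56) and Tnnc1 (0.63).

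Myh6 had Myom1, a gene of the sarcomeric M band (0.54), Tnni1 (0.63) and Actc1 (0.67) as nearest genes, all of which code for sarcomere proteins. Myh7 stood nearer to Cap2 (0.33), Rcsd1 (0.36) and Parm1 (0.42) than to any member, the nearest of which was Myl1 at 0.62. Myl1 was nearest to Rcsd1 (0.49), Lce1h (0.53) and Gnao1 (0.56). The order reflects the size of the rise as well as its course, and it rests on 4 stages.

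Other parts of the myosin machinery moved less evenly. Of 10 other myosin heavy chain genes 5 were tested, and 2 were higher and 1 lower in CM than in CP, with a list median of 0.25 against -0.04 for all genes. Myh11, the smooth muscle heavy chain, read 4.10 to 52.3 in CP and 192 to 284 in CM and was 2.60 higher on the log2 scale, given as a description because it passed the filter only through the CM arrays. The nonmuscle chain Myh10 rose by 0.80 and the nonmuscle chain Myh14 fell by 0.76, while Myh9 differed by 0.25 (limma adjusted p = 0.126). The skeletal chains Myh1, Myh2, Myh3, Myh4 and Myh8 did not pass the filter on dim probe sets.

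Of 7 other light chain genes 5 were tested, with 2 higher and 1 lower in CM than in CP and a median of 0.22. Myl9, the regulatory light chain of smooth muscle, climbed through the stages from 267 to 337 in ES-LIF(+), 639 to 804 in ES-LIF(-), 2935 to 3723 in CP and 22357 to 25566 in CM, without overlap. It thus rose at each step, by 1.23 without LIF, by 3.35 from ES-LIF(+) to CP and by 2.89 from CP to CM (limma adjusted p = 3.10e-10). Myl6, the common essential light chain of nonmuscle and smooth muscle, rose by 0.75. Mylpf, the regulatory light chain of fast skeletal muscle which pairs with Myl1 in fast fibres, went the other way, falling by 1.79 from CP to CM (limma adjusted p = 2.37e-05) and by 2.20 on removal of LIF (limma adjusted p = 1.50e-05). Its signals were 807 to 1087 in ES-LIF(+), 125 to 258 in ES-LIF(-), 747 to 954 in CP and 178 to 280 in CM.

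Of 10 thick filament genes 5 were tested and all 5 were higher in CM than in CP, with a median of 5.30. Of these 5, Mybphl, Myom1 and Myom2 passed the filter only through the CM arrays, so they had to differ. Myom1 rose by 5.87, Mybphl, a relative of Mybpc3, by 5.30, Ttn, which codes for titin, by 5.30, Myom2 by 4.09 and Obsl1 by 0.76. In CP, Ttn was lower than in ES-LIF(+) by -0.98 (limma adjusted p = 0.0268), and Myom2 and Obsl1 were higher. Mybpc1 and Mybpc2, the skeletal forms of myosin binding protein C, did not pass the filter.

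Of 11 genes for myosin folding and for the kinases and phosphatase of the light chains 10 were tested, and 3 were higher in CM than in CP, with a median of 0.24. These were Mylk3, the cardiac light chain kinase, by 3.58, Unc45b, a myosin chaperone of striated muscle, by 2.48, and Ppp1r12b, a targeting subunit of myosin phosphatase, by 1.47. Mylk, the smooth muscle light chain kinase, had already risen in CP, by 3.75 over ES-LIF(+), and differed by -0.17 from CP to CM (limma adjusted p = 0.548). Unc45b fell by 0.79 from ES-LIF(+) to CP before its rise.

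Of 19 transcriptional regulators of myosin genes 17 were tested, and 12 were higher in CM than in CP, with a median of 1.19. Mef2c, Tbx5 and Myocd passed the filter only through the CM arrays, and of the 14 others 9 were higher. Large values were those of Myocd, the cofactor of serum response factor (4.27), Tbx20 (4.22), Nkx2-5 (3.71) and Mef2c (3.35). In CP 8 of the 17 were already higher than in ES-LIF(+), against 18.7% of all genes tested. Among them were Nr2f2 (2.77) and Nr2f1 (2.44), known for their place in atrial identity, and Tbx20 (1.57) and Gata4 (1.45). From CP to CM Nr2f2 differed by 0.39 (limma adjusted p = 0.42) and Nr2f1 by -0.39 (limma adjusted p = 0.481). Irx4 and Hey2, known for their place in the ventricle, did not pass the filter on dim probe sets and were not tested. Their signals were nevertheless higher in CM than in CP without overlap, as were those of 21.9% of all genes tested. In CM Irx4 exceeded the array median on 1 array only, and all signals of Hey2 lay below it. Irx4 read 5.80 to 40.7 in CP and 100 to 171 in CM, and Hey2 0.20 to 36.9 in CP and 60.9 to 88.6 in CM.

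**Figure D5:**
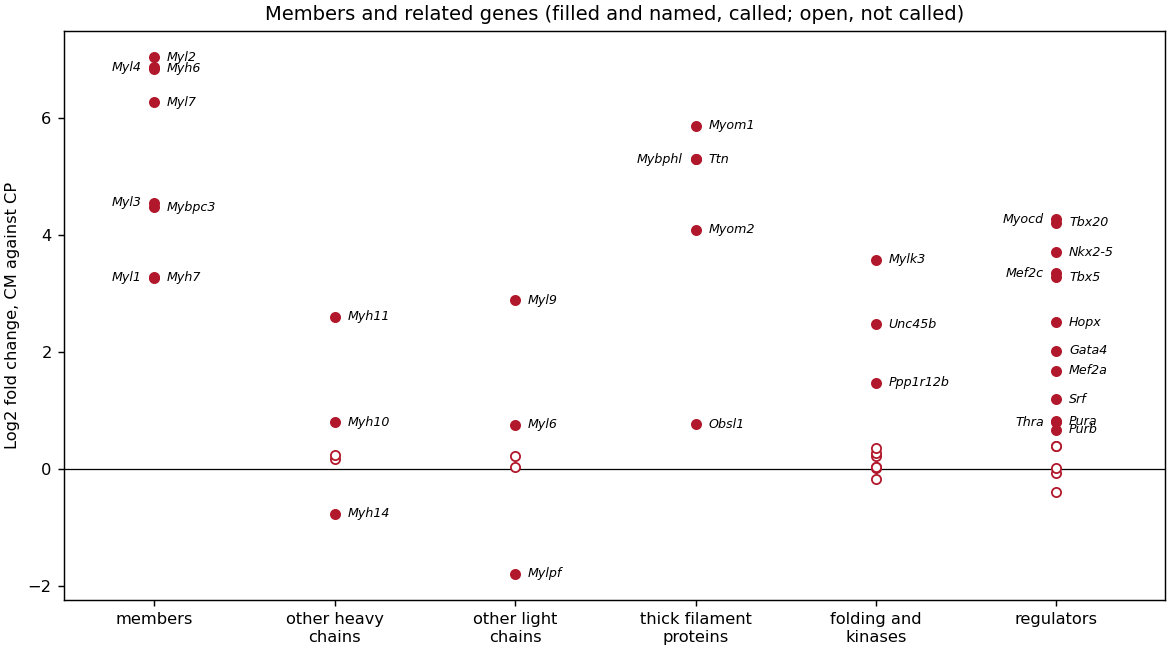
Log2 fold change of CM against CP for the 8 members and the tested genes of the 5 related lists, filled and named where called and open where not. The members lie between 3.27 and 7.04, a range that only thick filament genes (up to 5.87), regulators (up to 4.27) and Mylk3 (3.58) reach.

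The labelled cell types were set against marker genes, some of which passed the filter only through the CM arrays (3 of the cardiomyocyte, 2 of the smooth muscle, 2 of the endothelial, 1 of the skeletal and 1 of the erythroid markers tested). Of all genes tested, 9.04% were called higher in CM than in CP, and 18.7% higher in CP than in ES-LIF(+). All 10 cardiomyocyte markers were higher in CM than in CP, and 7 of 10 had risen by CP over ES-LIF(+), with a summed signal of 975 to 1019 in ES-LIF(+), 2536 to 2778 in CP and 113956 to 127899 in CM. Of 13 skeletal muscle markers 5 were tested, 2 were higher and 1 lower in CM than in CP, and the summed signal was 1329 to 1353 in CP and 2648 to 2885 in CM. The defining skeletal factors Myog, Myf5 and Myf6 did not pass the filter, and Myod1 differed by 0.08 (limma adjusted p = 0.92). Acta1 and Tnnt3 rose by 2.66 and 2.50. Whether skeletal muscle cells had a part in the rise of Myl1 was not tested.

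Markers of other cells also changed between the stages, not all in the direction of the members. Of 8 smooth muscle markers, which include Myh11 and Mylk, 6 were higher in CM than in CP and 7 higher in CP than in ES-LIF(+), with a summed signal of 32106 to 36376 in CP and 66148 to 75055 in CM. All 8 fibroblast markers rose from ES-LIF(+) to CP, and 5 of 8 were lower in CM than in CP, with a summed signal of 94053 to 100830 in CP and 50119 to 51203 in CM. Of 5 endothelial markers tested 3 were higher in CM than in CP, with sums of 1150 to 1434 in CP and 1832 to 2290 in CM. Of 4 erythroid markers tested 2, the embryonic globins Hbb-bh1 and Hba-x, were higher, and their list varied among the CM arrays from 885 to 16729, against 253 to 531 in CP. All 7 stem cell markers were lower in CM than in CP, where 5 of 7 were lower than in ES-LIF(+). Pou5f1, a defining stem cell factor, still read 6775 in CP and 1854 in CM against 11365 in ES-LIF(+) (means of 3 arrays). The part of these cells in the members' values was not tested.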

How the data were processed

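Gene expression was measured on 12 mouse arrays, 3 per stage. The authors deposited linear signal intensity values made with Microarray Suite 5.0 (MAS5), already scaled to a common trimmed mean, and stage came from the cell type label. Depth has no counterpart on arrays, so the number of arrays and the background limit precision. The 64 control probe sets were left out, as were detection calls. Gene symbols came from the platform annotation (34945 probe sets with 1 gene, 932 with several, 9160 with none). Values were taken as log2(signal + 16), and probe sets above the array median on at least 3 of 12 arrays were fitted with limma 3.58.1 in R 4.3.3 (1 mean per stage, variance trend), checked on simulated data. A call needed a Benjamini-Hochberg adjusted p under 0.05 and a fold above 1.5. Within-array differences were compared by exact permutation. The text names all 8 members, the 3 nearest genes of each, and from each related list up to 4 called genes and defining markers. Nr2f1, Ttn, Mylk and other genes outside that rule were named after their values were seen. The members and lists were chosen with earlier results of these data known. Alternatives covered scaling, pseudocount, filter, variance trend, the methods' one-way analysis of variance, fold threshold, stages in the fit, probe set choice, a replicate block and each array left out. Promoter sequences are RefSeq's (GRCm38.p6), where all 8 members were matched. The microRNA sequences came from a separate reference and were placed by the RefSeq spans of the genes. The build behind the array annotation is not given in the sources used here. Figures were drawn with matplotlib 3.10.9.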

Additional observations from a re-analysis of the deposited data

Results flagged for a closer look

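Myl4 was the only member called in opposite directions from ES-LIF(+) at the next stages (Myl7, Myl2, Myl3 and Mybpc3 had opposite signs without both calls), with all 3 ES-LIF(-) arrays (76.9 to 97.4) below and all 3 CP arrays (283 to 384) above the ES-LIF(+) arrays (129 to 180). Of all genes tested, 3.68% were called lower in ES-LIF(-) and 18.7% higher in CP. Every ES-LIF(-) array lay below the ES-LIF(+) arrays for 13.7% of them, and every CP array above for 30.8%. How many genes were called in both of these directions was not counted. For Myl4, CP exceeded ES-LIF(-) by 1.68 on the log2 scale (SE 0.15, n = 3 per stage, limma adjusted p = 2.83e-07). The second Myl4 probe set did not show this order, with means of 100 in ES-LIF(+), 115 in ES-LIF(-) and 116 in CP.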

How the results depend on the processing

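Every alternative that kept all CM arrays called all 8 members in CM against CP and against ES-LIF(+), and by the 4-stage F test where run. The loss of any 1 CM array left 6, because Myh7 and Myl1 then failed the filter on dim probe sets. Myh7, Myl1 and Myl2 passed that filter only through the CM arrays, so their calls in CM are a description and add no support. In CP a 2-fold threshold left 1 call (Myl7), leaving out ES-LIF(+) replicate 1 added Myh7 (3 calls), and the mean over probe sets called Myh6 (0.62) in place of Myl4 (0.55). The calls in ES-LIF(-) were less stable, at 1 with a pseudocount of 64 or with only the stages compared, 0 with a 2-fold threshold or with the mean over probe sets, and 4 by one-way analysis of variance, whose p covers all 4 stages, CM included, so the 2 added calls (Myh7 and Myl2) are no test of ES-LIF(-). The shift of Myl4 minus Myl3 turned from 2.32 to -2.13 with the mean over probe sets and, in pairings of probe sets added after the data were seen, to -0.73, -3.29, -5.17 and -6.34. Small changes that turned sign, none of them called, were those of Myh6 in CP (-0.091 with median centring, -0.115 with quantile normalization) and Myl3 in CP (-0.016 and -0.037). With each array left out in turn, Myl1 in CP ranged from -0.12 to 0.95 and in ES-LIF(-) from -0.14 to 0.55, and Myl7 in ES-LIF(-) from -0.370 to 0.064. The cause was not tested. The replicate numbers in the labels did not pair the arrays, since deviations from the stage means correlated at -0.05 to 0.10 over 18 pairs and 4 of 12 arrays were closest to their own number. Other groupings of the arrays were not tested. With a replicate block the members called stayed at 2, 8, 2 and 8 for CP, CM and ES-LIF(-) against ES-LIF(+) and CM against CP, and the shifts at 3.57, -0.77 and 2.32. Before CM, Myh7, Myl1 and most values of Myl2 lay below the array medians, which limits differences among them, the call of Myl2 in CP against ES-LIF(-) included.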
